A study of Mus musculus with 14 samples.

Results

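The genes for mitochondrial ribosomal proteins were examined in mouse quadriceps muscle with and without HDAC3. They were taken as every gene of the deposited expression table whose symbol starts with Mrpl or Mrps followed by a digit, which gave 77 genes of 24354. Of these, 48 are named for the large subunit (Mrpl) and 29 for the small subunit (Mrps). All 77 had a mean of at least 1 FPKM over the libraries and entered the test, so a filter on low values removed no member.

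The series asks how HDAC3, a histone deacetylase that works in corepressor complexes, acts on skeletal muscle across the day. Of its 14 samples, the 6 RNA-seq libraries used here came from resting quadriceps of male C57BL/6 mice aged 4 months on normal chow and a normal light/dark cycle, collected at ZT10 (hours from lights on). A group of 3 libraries carried the label HDAC3 Wild-type and a group of 3 the label HDAC3 Knock-out, and neither had a specific treatment. The labels do not name the Cre line, promoter or allele behind the knockout, nor say whether the libraries of a group came from separate mice, so p-values measure a spread between libraries that may be technical.

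Mitochondria carry their own ribosome, which translates the small set of respiratory chain proteins encoded in mitochondrial DNA. Its RNAs come from mitochondrial DNA, whereas all of its proteins are encoded in the nucleus, made in the cytosol and imported, so the genes described here are nuclear. Some of these proteins descend from bacterial ribosomal proteins and others are found only in mitochondria. In skeletal muscle, a tissue rich in mitochondria, they supply the machinery for making the core of oxidative phosphorylation.

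Nuclear genes for mitochondrial proteins are often read through short start-site elements bound by NRF1 and by ETS factors such as GABPA, so the sequences before the start of these genes are shown first. RefSeq windows (GRCm38.p6) from 250 bases before to 50 bases after the annotated start were matched for 68 of the 77 members, in 74 windows of 300 bases. No window was matched for Mrpl4, Mrpl13, Mrpl15, Mrpl19, Mrpl38, Mrpl54, Mrps28, Mrps34 and Mrps35. The 250 bases before the start are printed for Mrps18b and Mrpl30, the members with a higher level in knockout by the test below, and for Mrpl12, the member with the largest difference toward lower levels. Capitals mark the letters CGCANGCG, the core of an NRF1 element, on either strand.

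Mrps18b, chr17:35916441-35916690, minus strand: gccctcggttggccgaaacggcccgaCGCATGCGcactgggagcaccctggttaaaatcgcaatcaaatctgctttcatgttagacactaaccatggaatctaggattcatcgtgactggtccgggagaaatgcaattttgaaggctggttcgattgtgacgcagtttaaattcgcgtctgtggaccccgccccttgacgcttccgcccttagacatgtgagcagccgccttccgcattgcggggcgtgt
Mrpl30, chr1:37890227-37890476, plus strand: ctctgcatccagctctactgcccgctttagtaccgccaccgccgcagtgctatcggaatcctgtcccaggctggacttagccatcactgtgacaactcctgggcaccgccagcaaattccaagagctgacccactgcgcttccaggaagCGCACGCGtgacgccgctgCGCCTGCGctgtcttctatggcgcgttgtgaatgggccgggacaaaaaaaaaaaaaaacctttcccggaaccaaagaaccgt
Mrpl12, chr11:120484387-120484636, plus strand: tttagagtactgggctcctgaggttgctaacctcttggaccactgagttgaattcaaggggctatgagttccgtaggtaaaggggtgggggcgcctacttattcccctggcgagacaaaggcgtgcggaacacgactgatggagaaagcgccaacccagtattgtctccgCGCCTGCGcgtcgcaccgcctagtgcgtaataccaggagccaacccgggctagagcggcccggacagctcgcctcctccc

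The matched letters begin 224 bases before the start in Mrps18b, and 101 and 82 bases before it in Mrpl30. In Mrpl12 they begin 80 bases before the start, with a further match 43 bases after it, beyond the printed stretch. Mrps18b also holds the ETS letters CCGGAAG, on the opposite strand, 44 bases after the start. Mrpl47, the other member called in the authors' deposited table, holds none of the motifs searched.

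Of the 20 members with the NRF1 letters in a window, 9 had knockout and wild-type libraries that did not overlap in level, 7 with knockout higher and 2 with knockout lower. Of the 48 windowed members without these letters, 5 were higher and 2 lower without overlap. Over all tested genes 14.2% were higher and 11.9% lower without overlap. The difference between members with and without the letters was not tested. Stretches of 30 bases around the first match are printed for the 6 of them not shown above. Knockout was higher in Mrpl9, Mrpl17, Mrpl39, Mrpl45 and Mrps21 and lower in Mrps9.

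Mrpl9, chr3:94443298-94443327, plus strand: aggcgcagctgCGCATGCGcggggtccttc
Mrpl17, chr7:105811117-105811146, minus strand: aggctctgatgCGCACGCGcaaacgcggta
Mrpl39, chr16:84735350-84735379, minus strand: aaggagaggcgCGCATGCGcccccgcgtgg
Mrpl45, chr11:97315586-97315615, plus strand: gaagcctcctgCGCAGGCGcagctggctct
Mrps21, chr3:95871586-95871615, minus strand: ggaaagtccagCGCCTGCGctcagcaccga
Mrps9, chr1:42851218-42851247, plus strand: tgggaggtctgCGCCTGCGcagtctccagg

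The NRF1 letters were present in 20 of the 74 member windows (27.0%), in 17.8% of the 10289 windows of tested genes and in 8.21% of all 32851 windows. The ETS letters were present in 25 member windows (33.8%), against 17.9% of tested and 8.86% of all windows. The letters AAGATGGC, part of a YY1 element, were present in 12 (16.2%), against 4.76% and 2.75%. At least 1 of these 3 motifs was found in 43 of 68 members, and more than 1 in 13. The estrogen-related receptor letters TCAAGGTCA were in no member window, 0.243% of tested and 0.423% of all windows. The TATA box letters TATAAA were in 5 member windows (6.76%), 7.43% of tested and 13.6% of all windows. All motifs were searched on both strands. The ETS letters end with the AAG that begins the YY1 letters, so both can be matched in 1 stretch. The median GC content was 58.5% in member windows, 60.7% in those of tested genes and 52.7% in all.

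A match is a description of letters and not a bound site. The same motifs stood on both sides of the comparison. The 20 members with the NRF1 letters had a median log2 fold change (knockout over wild type) of 0.18, with 14 higher, and the 48 without had 0.09, with 32 higher. Members with the ETS letters had a median of 0.06 (25 genes), against 0.12 in the other 43. The 12 members with the YY1 letters had a median of -0.02 with 5 higher, against 0.13 in the other 56. None of those 12 had groups that did not overlap in level, and among the other 56 there were 12 higher and 4 lower without overlap (14.2% and 11.9% of all tested genes), a contrast that was not tested.

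Levels are in FPKM (fragments per kilobase, corrected for sequencing depth), and genes were ranked by it. Reads shared with overlapping genes or pseudogene copies may shift the level of a gene. The members differed widely in level, by 83.8-fold between the highest and the lowest mean over the 6 libraries. The median member stood at 30.4 FPKM, compared with 6.63 FPKM for all 10501 tested genes. Of the 77, 65 lay from 10 to 100 FPKM, 7 at 100 or more and 5 under 10. The median was 32.3 FPKM in the large subunit and 24.9 FPKM in the small subunit.

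The most abundant was Mrpl42, a mitochondrion-specific large subunit protein, at 441, 419 and 357 FPKM in wild type and 482, 503 and 430 in knockout. Mrps21, the counterpart of bacterial S21, followed at 289, 330 and 361 FPKM in wild type and 363, 364 and 389 in knockout. The ranges of these genes overlapped in wild type and were apart in knockout. Then came Mrpl33 (a mean of 213 FPKM), Mrpl30 (169), Mrpl23 (125), Mrpl18 (104) and Mrpl51 (101), all of the large subunit. In the small subunit Mrps16 (78.2 FPKM), Mrps36 (74.7), Mrps18c (70.7) and Mrps28 (61.6) came after Mrps21, and the ranges of these genes over the 6 libraries overlapped one another. The 5 highest members held 35.0% of the summed level of all 77.

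At the low end, Mrpl19 was at 4.88, 4.59 and 6.28 FPKM in wild type and 5.48, 4.71 and 5.47 in knockout. Mrpl17 (5.49 FPKM on average) and Mrpl41 (7.18) were next in the large subunit, and Mrps6 (8.04), Mrps11 (10.2) and Mrps25 (10.2) were lowest in the small subunit. The order of such neighbours lies within the spread of their libraries.

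**Figure D1:**
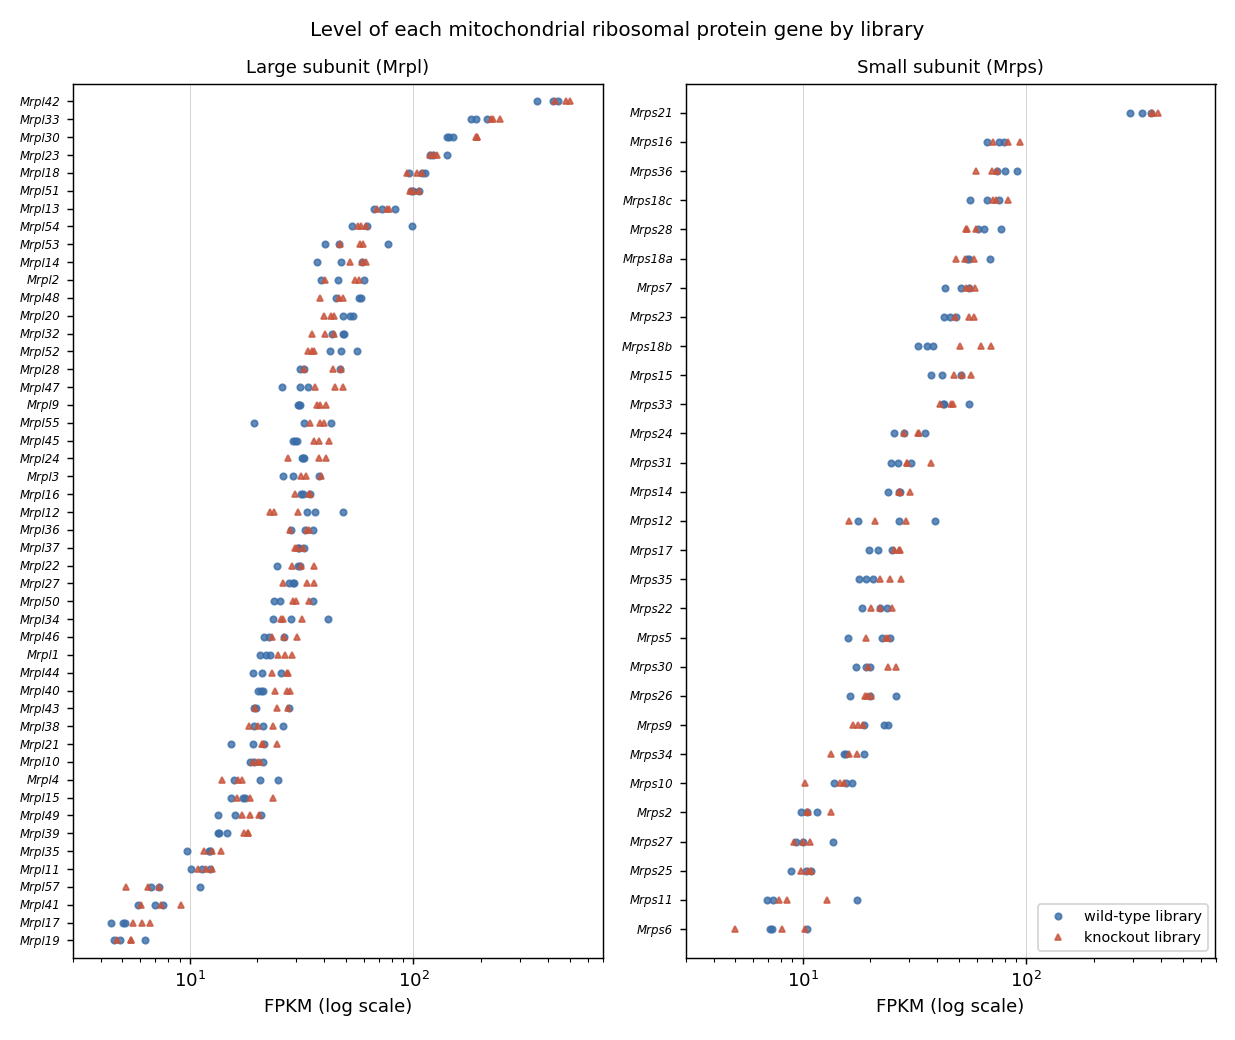
FPKM (log axis) of each large subunit gene (left) and small subunit gene (right), ordered by its mean over 6 libraries. Circles are the 3 wild-type and triangles the 3 knockout libraries. Mrpl42 and Mrps21 stand at the top, most genes lie between 10 and 100 FPKM, and for most genes the 2 groups overlap.

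Hdac3 itself was at 33.3, 31.0 and 23.7 FPKM in wild type and 5.51, 6.29 and 8.16 FPKM in knockout, 4.41-fold lower on group means (limma adjusted p = 0.00632). The libraries summed to between 454359 and 495099 FPKM, and 10281 to 10544 genes reached 1 FPKM in each. By the step size of low FPKM values, relative depth was 0.831 to 1.02 of wild-type replicate 1 in the other wild-type libraries and 0.660 to 0.832 in knockout. The 8 muscle fibre markers summed to between 52673 and 62297 FPKM in wild type and between 52425 and 64553 in knockout. None of 10 lists of cell type markers held a gene with a limma adjusted p under 0.05. Any marker with a mean under 1 FPKM was outside the test and counted as not called. The sum of 3 satellite cell markers was the only 1 of the 10 whose groups did not overlap, at 3.67 to 5.83 FPKM in wild type and 1.72 to 2.58 in knockout. The neutrophil sum reached 467 FPKM in wild-type replicate 2, with 5.64 as the lowest wild-type value and 3.74 to 8.23 in knockout. The part of these markers in the results below was not tested. In bulk muscle, fewer cells of a type and less RNA per cell cannot be told apart.

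Knockout muscle had a higher level of 2 of the 77 genes, Mrps18b and Mrpl30, and of none a lower level, by limma on log2(FPKM + 1) with Benjamini-Hochberg adjusted p under 0.05. That share, 2.60%, stood beside 3.65% of all 10501 tested genes, of which 242 rose and 141 fell. At an unadjusted limma p under 0.05 the members counted 11 higher and 4 lower, 19.5% of them, beside 19.7% of all tested genes. By a q-value under 0.05 in the authors' deposited table, 2 members were higher (Mrps18b and Mrpl47) and 1 was lower (Mrpl12), 3.90% of the 77 beside 10.8% of the 9204 genes tested there. The members' shares by limma lay near those of genes in general, which is no result about the members.

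Mrps18b rose the most. It is 1 of 3 mammalian relatives of bacterial ribosomal protein S18, and the protein sits in the small subunit. It stood at 32.8, 36.0 and 38.4 FPKM in wild type and at 69.4, 50.5 and 62.9 FPKM in knockout, with every knockout library above every wild-type library. The means were 35.7 ± 2.83 and 60.9 ± 9.59 FPKM (SD, n = 3 each), 1.71-fold higher in knockout. On the log2(FPKM + 1) scale limma gave a fold change of 0.75 with a standard error of 0.14 (95% interval 0.43 to 1.06, adjusted p = 0.0327), and the authors' deposited table gave q = 0.00119. With 1 library left out in turn the limma adjusted p ran from 0.0355 to 0.127, and the call held only without knockout replicate 2. An annotated long noncoding RNA gene, Gm16279, overlaps Mrps18b, and the sources used here do not say whether counting used strand.

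Its relatives were measured separately. Mrps18c, the relative that takes the place of bacterial S18, had 65.8 ± 9.71 FPKM in wild type and 75.6 ± 6.39 in knockout (SD, n = 3; limma log2 fold change 0.20, adjusted p = 0.448). Mrps18a, whose protein is located in the large subunit despite its name, had 59.5 ± 8.20 and 53.4 ± 4.96 FPKM (SD, n = 3; limma log2 fold change -0.15, adjusted p = 0.572). Both had groups that overlapped. Without wild-type replicate 3 the fold changes were 0.09 for Mrps18c and -0.04 for Mrps18a. The difference between Mrps18b and its relatives in response to the knockout was not tested.

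Mrpl30, the counterpart of bacterial L30, was the other member that rose. It was at 144, 142 and 150 FPKM in wild type and 192, 192 and 191 FPKM in knockout, so the libraries within each group lay close and the groups were well apart. The means were 145 ± 4.29 and 192 ± 0.450 FPKM (SD, n = 3), 1.32-fold higher in knockout (limma log2 fold change 0.40, standard error 0.08, adjusted p = 0.0478). The authors' deposited table gave q = 0.0744. The adjusted p was above the threshold whichever single library was left out, between 0.0626 and 0.194, and was 0.0544 after rescaling the libraries by median-of-ratios factors.

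Mrpl47, the counterpart of bacterial L29 near the exit of the peptide tunnel, was at 31.1, 33.7 and 25.8 FPKM in wild type and at 48.6, 36.3 and 44.4 FPKM in knockout. The groups did not overlap, and the lowest knockout value lay close to the highest wild-type value. The ratio of means was 1.43, the limma log2 fold change 0.50 with a standard error of 0.15, and the limma adjusted p 0.119. The authors' deposited table gave q = 0.0480.

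Mrpl12 differed most in the other direction. It forms the flexible stalk of the large subunit that recruits translation factors, and the protein has also been described as a partner of the mitochondrial RNA polymerase. It was at 48.4, 33.5 and 36.4 FPKM in wild type and 22.9, 30.4 and 23.7 FPKM in knockout, without overlap. Means were 39.5 ± 7.89 and 25.7 ± 4.10 FPKM (SD, n = 3), 1.54-fold lower in knockout. The authors' deposited table gave q = 0.0110, whereas limma gave a log2 fold change of -0.59 with a standard error of 0.17 and an adjusted p of 0.111. Its neighbours at the base of the stalk stood at 19.7 ± 1.42 and 20.0 ± 0.657 FPKM for Mrpl10 and 11.3 ± 1.10 and 11.8 ± 0.810 FPKM for Mrpl11 (SD, n = 3, wild type then knockout), with overlapping groups.

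**Figure D2:**
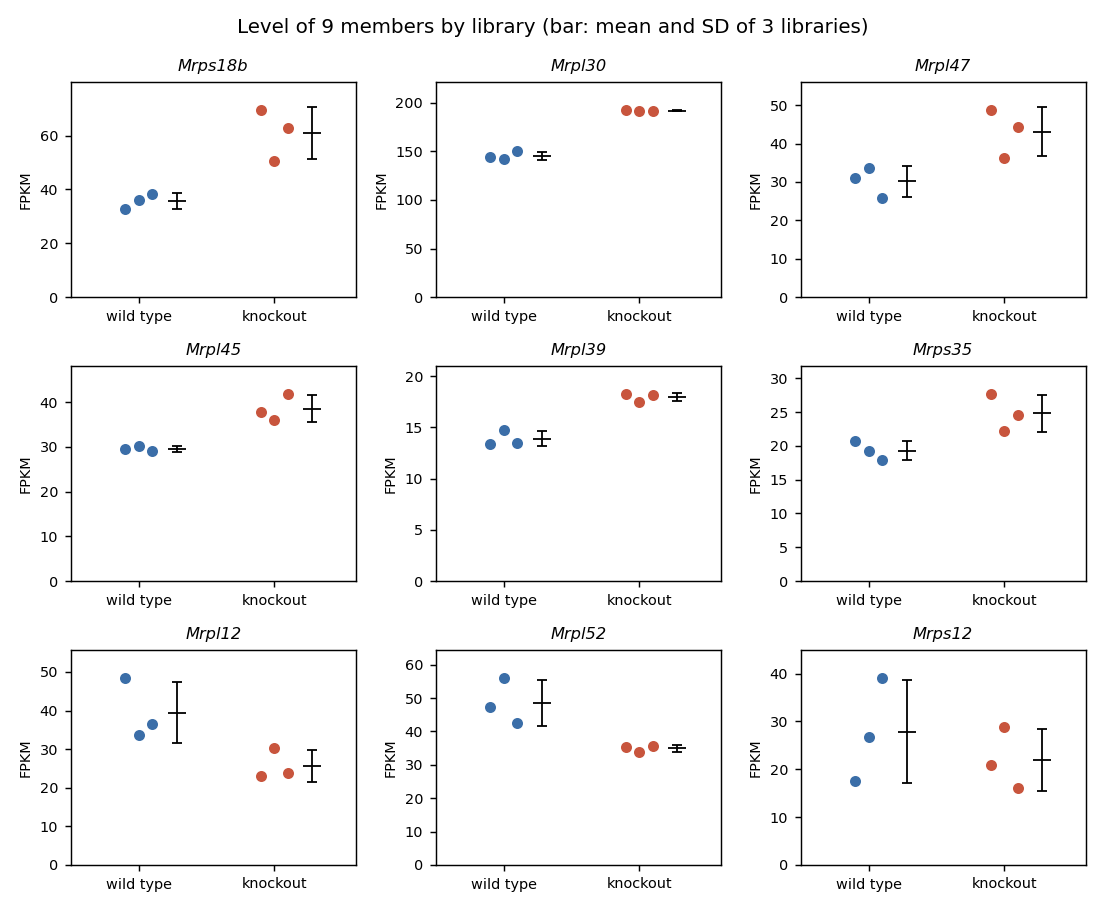
FPKM of 9 members in each library, with the axis starting at 0 in each panel; points are libraries and the bar gives the mean and SD of 3. Mrps18b and Mrpl30 passed the limma threshold; Mrpl47, Mrpl45, Mrpl39 and Mrps35 were higher and Mrpl12 and Mrpl52 lower in every knockout library without passing it, and Mrps12 overlapped.

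Further members of the large subunit had separate groups without passing the limma test. Mrpl45, which anchors the ribosome to the inner membrane, was at 29.6 ± 0.637 FPKM in wild type and 38.6 ± 2.91 in knockout (SD, n = 3; limma log2 fold change 0.37, adjusted p = 0.0846). Mrpl39, a mitochondrion-specific protein, was at 13.9 ± 0.732 and 18.0 ± 0.398 FPKM (limma log2 fold change 0.35, adjusted p = 0.0914). Mrpl52, also mitochondrion-specific, was at 47.4, 56.0 and 42.5 FPKM in wild type and 35.3, 33.8 and 35.7 in knockout (limma log2 fold change -0.46, adjusted p = 0.0877). Mrpl57 (log2 fold change -0.34, limma adjusted p = 0.412) and Mrpl4, the counterpart of bacterial L4 (-0.33, limma adjusted p = 0.333), had the next lowest values, with groups that overlapped. Without wild-type replicate 3 they were at -0.14 and -0.19.

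In the small subunit the highest values after Mrps18b belonged to Mrps35 (log2 fold change 0.34), Mrps30 (0.29) and Mrps17, the counterpart of bacterial S17 (0.26), with limma adjusted p of 0.158, 0.279 and 0.261. Mrps30 is named for the small subunit, but its protein is located in the large one. The lowest values were -0.30 for Mrps12, a decoding-centre protein, -0.29 for Mrps9, -0.27 for Mrps28 and -0.26 for Mrps36. Limma adjusted p was 0.649, 0.239, 0.261 and 0.290. The protein of Mrps36 is a part of the 2-oxoglutarate dehydrogenase complex rather than of the ribosome. The value of Mrps12 was -0.02 without wild-type replicate 3 and -0.58 without wild-type replicate 1. Mrps12 spread more within a group than between groups, at 17.6, 26.8 and 39.1 FPKM in wild type and 21.0, 28.9 and 16.1 in knockout.

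Groups did not overlap, with knockout higher, for 13 of the 77 members (16.9%), beside 14.2% of all tested genes. They were Mrpl1, Mrpl9, Mrpl17, Mrpl30, Mrpl33, Mrpl39, Mrpl40, Mrpl45, Mrpl47, Mrps17, Mrps18b, Mrps21 and Mrps35. Knockout was lower without overlap for 5 (6.49%), beside 11.9% of all tested genes: Mrpl12, Mrpl20, Mrpl52, Mrps9 and Mrps28. The remaining 59 members overlapped between groups.

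Fold changes of the members were small. They ran from -0.59 to 0.75 on the log2(FPKM + 1) scale with a median of 0.09, and the middle 50% of them lay from -0.07 to 0.22. All tested genes had a median of 0.00, with the middle 50% from -0.18 to 0.18. Knockout was higher for 48 of 77 members (62.3%) and for 50.3% of all tested genes. Only Mrps18b and Mrpl12 differed by more than 1.5-fold on this scale, 2 of 77 members beside 855 of all 10501 tested genes. The 95% interval of limma stayed within 1.5-fold in either direction for 57 of 77 members (74.0%), compared with 54.9% of all tested genes, so for these 57 the interval does not reach a 1.5-fold difference. The median standard error was 0.13 for members and 0.15 over all tested genes, which had a lower median level. The part of level in this contrast was not tested. The direction of 50 members was the same in the full fit and in each of 6 fits with 1 library left out (36 higher, 14 lower), and that of 27 turned in at least 1 of them. This count was not made over all tested genes, so it is no result about the members.

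**Figure D3:**
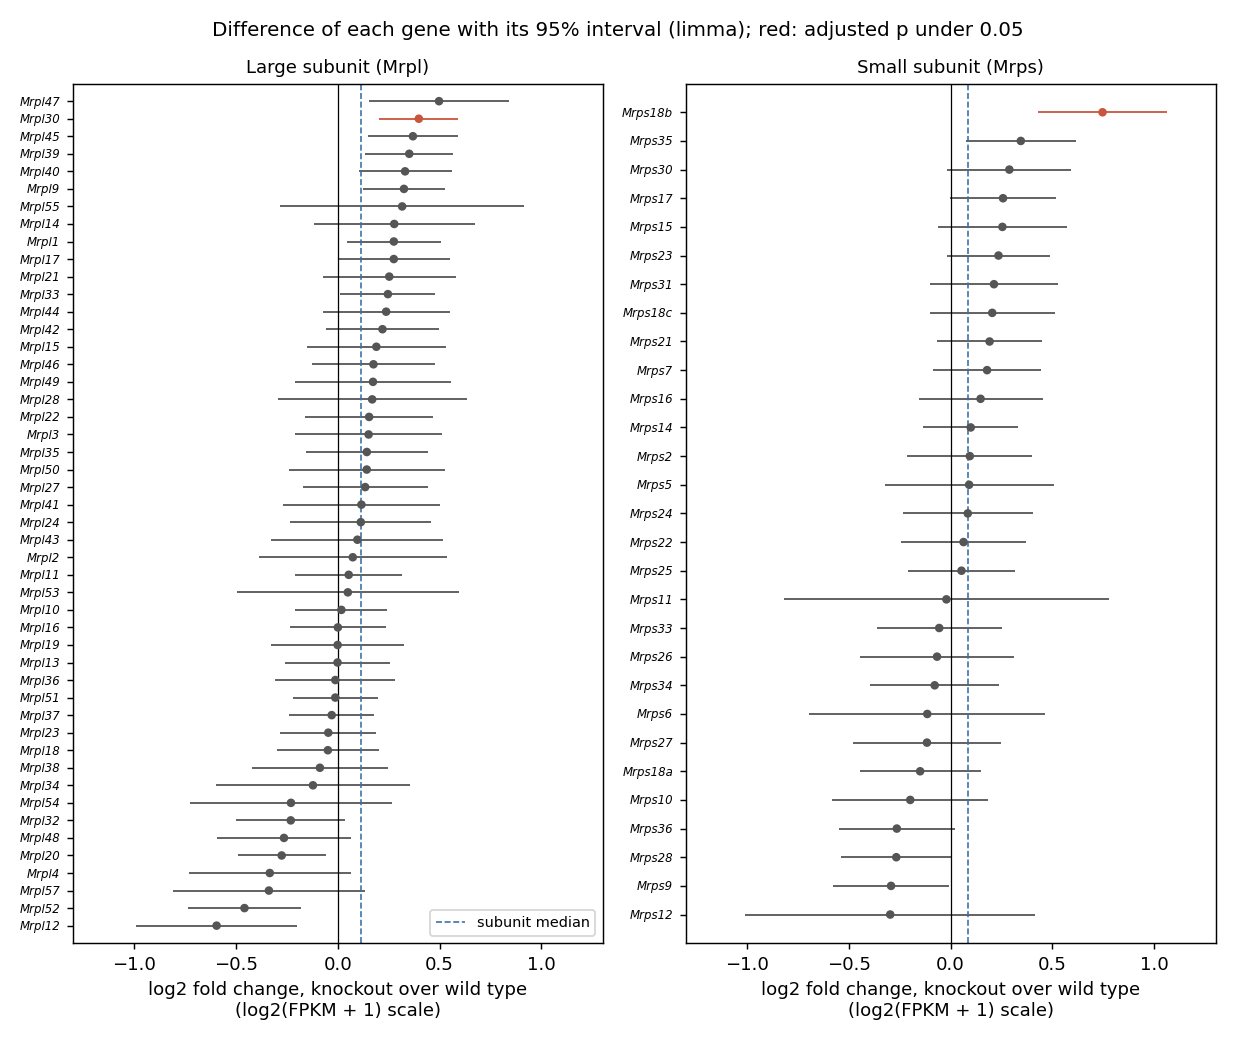
Log2 fold change of each gene, knockout over wild type on the log2(FPKM + 1) scale, with its 95% limma interval, large subunit left and small subunit right. The dashed line is the subunit median (0.12 and 0.08) and red marks the genes with an adjusted p under 0.05, Mrpl30 and Mrps18b; most intervals include 0.

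The subunits were then compared. The large subunit had 31 of 48 genes higher in knockout (64.6%) and a median log2 fold change of 0.12, and the small subunit had 17 of 29 (58.6%) and 0.08. Each had 1 member that passed the limma threshold. The difference of medians was 0.03. Per library, the large minus small median deviation from gene means had an SD of 0.0266 between libraries of a group. That SD is for single libraries and not for a difference of group means. The difference of medians turned sign when knockout replicate 1 (-0.01), knockout replicate 2 (-0.06), wild-type replicate 1 (-0.00) or wild-type replicate 2 (-0.07) was left out. Placing genes by where the protein sits (Mrps30 and Mrps18a in the large subunit, Mrps36 left out) gave 0.12 for 50 large and 0.09 for 26 small subunit genes. Large subunit genes with a bacterial counterpart (29) had a median of 0.11 and mitochondrion-specific ones (21) 0.12. In the small subunit these were 0.09 (16 genes) and 0.06 (10 genes). Mrps18b was counted here as mitochondrion-specific, as was Mrps18a in the large subunit.

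Summed over its genes, the large subunit stood at 2328, 2324 and 2358 FPKM in wild type and 2471, 2535 and 2502 FPKM in knockout, without overlap. The means were 2337 ± 18.6 and 2502 ± 31.9 FPKM (SD, n = 3), 7.10% higher in knockout. Most of that difference lay in a few abundant genes: Mrpl42, Mrpl30 and Mrpl33, chosen after their values were seen, made up 149 of the 166 FPKM. The other 45 large subunit genes summed to 1531, 1582 and 1660 FPKM in wild type and 1574, 1613 and 1638 in knockout, with overlap and a 1.08% difference of means.

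The small subunit summed to 1158, 1228 and 1322 FPKM in wild type and 1324, 1291 and 1354 in knockout, with overlap. The means were 1236 ± 82.4 and 1323 ± 31.5 FPKM (SD, n = 3), 7.04% higher in knockout, and Mrps21 alone made up 45.1 of the 87.1 FPKM. This overlap depended on placement by gene name. Placed by where the protein sits, 26 small subunit genes summed to 1008, 1077 and 1143 FPKM in wild type. In knockout they summed to 1177, 1146 and 1212 FPKM, without overlap, though the nearest values lay close. The 50 large subunit genes placed this way did not overlap either. The ratio of large to small subunit sums was taken by gene name. It was 2.01, 1.89 and 1.78 in wild type and 1.87, 1.96 and 1.85 in knockout. Its means, 1.90 ± 0.114 and 1.89 ± 0.0622 (SD, n = 3), differed by less than the spread between libraries. As a share of all FPKM, the 77 members made up 0.746%, 0.782% and 0.759% in wild type and 0.817%, 0.778% and 0.779% in knockout, with overlap. The large subunit groups, apart in summed FPKM, also overlapped as a share. Knockout replicate 3 held 2502 of 495099 FPKM in the large subunit, a lower share than the 2324 of 454359 FPKM in wild-type replicate 2.

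**Figure D4:**
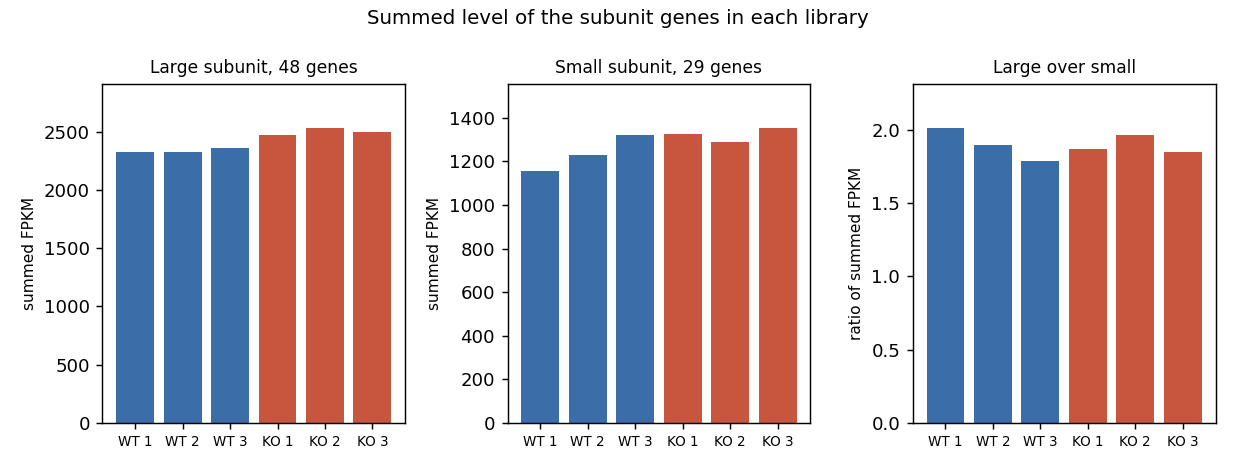
Summed FPKM of the 48 large subunit genes (left) and the 29 small subunit genes (middle), and the ratio of the sums (right), in each library; WT is wild type, KO is knockout and bars start at 0. Knockout libraries are all above wild type in the large subunit, at 2471 to 2535 against 2324 to 2358 FPKM, and overlap with it in the small subunit and in the ratio. Genes are placed by name, and sums are not divided by the total FPKM of a library. With genes placed by where the protein sits, the small subunit sums do not overlap.

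Single libraries stood apart for some members. In wild-type replicate 3, 11 of the 77 stood at least 1.4 times above the mean of the other wild-type libraries (14.3%, beside 13.6% of all tested genes), so the share was that of genes in general. They were Mrps11, Mrps12, Mrps26, Mrpl2, Mrpl28, Mrpl34, Mrpl43, Mrpl53, Mrpl54, Mrpl55 and Mrpl57, named after their values were seen. Mrps11, the counterpart of bacterial S11, was the most uneven, at 6.90, 7.38 and 17.5 FPKM in wild type and 7.83, 12.9 and 8.53 in knockout. The coefficient of variation in wild type was above 25% for 7 members and under 5% for 9, among them Mrpl30 (2.95%), Mrpl45 (2.15%) and Mrpl9 (1.01%). Its median was 12.2% in wild type and 8.95% in knockout, and 13.9% and 13.2% over all tested genes.

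**Figure D5:**
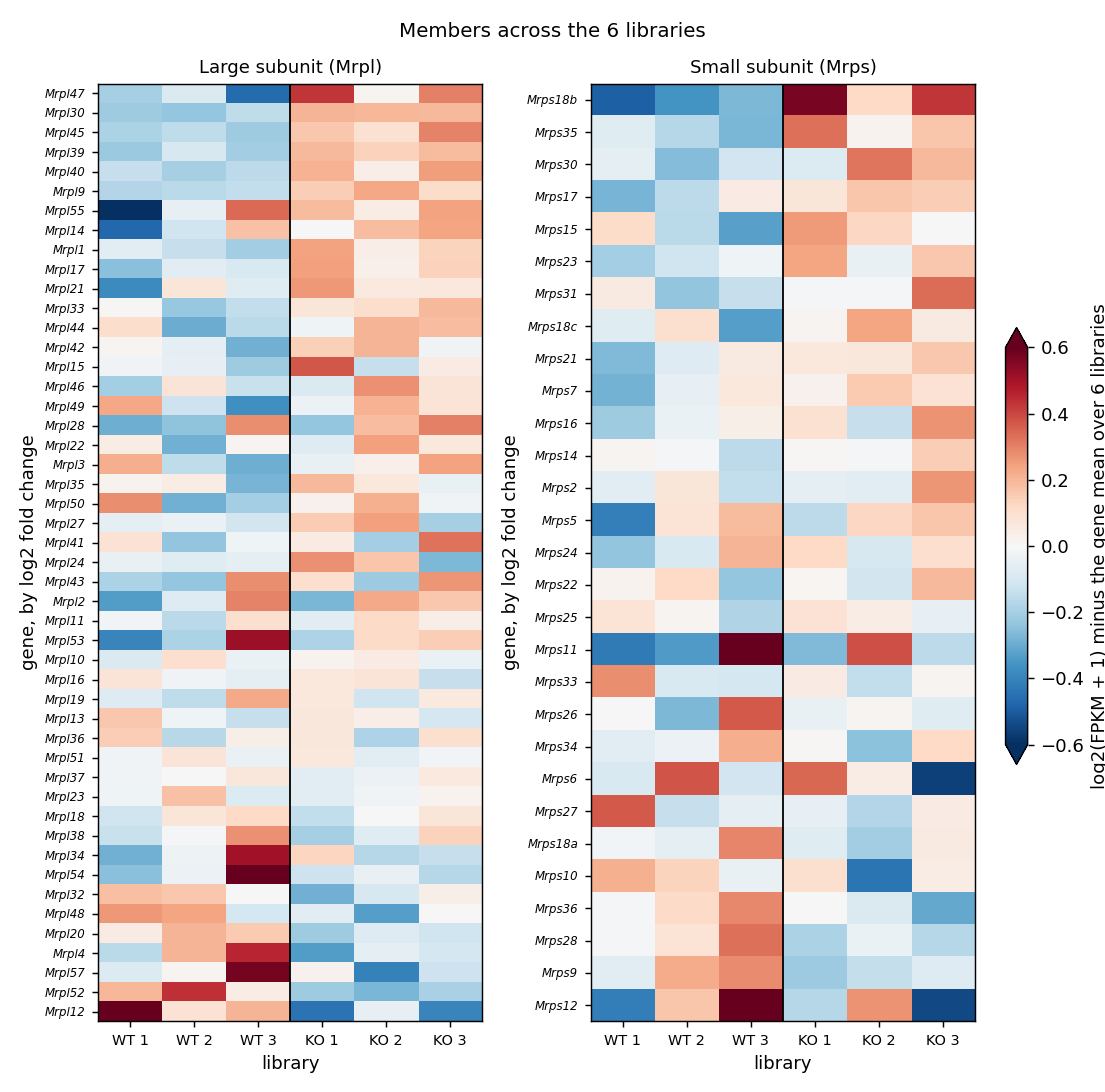
Level of each member in each library, as log2(FPKM + 1) minus the gene's mean over the 6 libraries (colour), with genes ordered by log2 fold change, large subunit left and small subunit right; the black line parts wild type (WT) from knockout (KO). Mrpl47 and Mrps18b, at the top, are low in all wild-type libraries. Single high values in wild-type replicate 3, such as that of Mrps11, stand mostly in the middle and lower parts, but that of Mrpl55 stands near the top.

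For each library the members' median deviation from the gene means was -0.07, -0.05 and -0.04 in wild type and 0.02, 0.03 and 0.06 in knockout on the log2 scale. Over all tested genes it lay between -0.01 and 0.01 in each library, rounded to 2 decimals. The 81 cytosolic ribosomal protein genes, whose products make the other ribosome of the cell, had a median log2 fold change of 0.11 over 78 tested genes, with 58 higher and none called by limma (5 higher and 1 lower at an unadjusted p under 0.05). A single gene of them was called, toward higher levels, in the authors' deposited table (1.28%, beside 10.8% of all genes tested there). Their median deviation per library was -0.12, -0.11 and 0.05 in wild type and 0.11, 0.01 and 0.06 in knockout, with overlap. The 36 genes for subunits of respiratory complex I, some of whose partners the mitochondrial ribosome makes, had a median of 0.03 with 20 higher. A single gene was called lower in the authors' deposited table (2.78%, beside 10.8%). None was called by limma (2 higher and 2 lower at an unadjusted p under 0.05), beside 3.65% of all tested genes. The shares at that unadjusted p were 7.69% of the cytosolic ribosomal and 11.1% of the complex I genes, beside 19.7% of all tested genes. The difference between these families and the members was not tested.

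Of 6 tested genes for mitochondrial ribosome proteins that carry other names, 1 passed the limma test (16.7%, beside 3.65% of all tested genes). At an unadjusted limma p under 0.05, 3 were higher and none lower (50%, beside 19.7%). The 6 genes had a median log2 fold change of 0.27, with 5 above 0 and Ict1 at 0.00. Chchd1, a small subunit protein, rose from 164, 158 and 156 FPKM in wild type to 224, 212 and 213 FPKM in knockout (limma log2 fold change 0.44, standard error 0.08, adjusted p = 0.0380), with an adjusted p of 0.0656 to 0.160 when any 1 library was left out. Ptcd3, an RNA-binding small subunit protein, was at 60.4, 51.4 and 40.6 FPKM in wild type and 70.8, 76.3 and 70.7 in knockout, with a limma adjusted p of 0.108 and q = 0.0105 in the authors' deposited table. Dap3, a GTP-binding small subunit protein, had a log2 fold change of 0.12 (limma adjusted p = 0.597), and Ict1, a peptidyl-tRNA hydrolase built into the large subunit, had 0.00 (-0.25 without knockout replicate 3).

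Among 25 ribosome assembly and RNA modification factors, 20 were higher in knockout, with a median log2 fold change of 0.21. The limma test called 1 of them, toward higher levels (4%, beside 3.65% of all tested genes). At an unadjusted limma p under 0.05, 8 were higher and 1 lower (36%, beside 19.7%). Trub2, a pseudouridine synthase of mitochondrial RNA, rose from 7.41, 8.17 and 7.19 to 12.8, 12.1 and 12.6 FPKM (limma log2 fold change 0.65, adjusted p = 0.0217), with an adjusted p of 0.0538 to 0.0942 when any 1 library was left out. Malsu1, which keeps the maturing large subunit apart from the small one, was at 47.7 ± 3.35 and 69.6 ± 8.27 FPKM (SD, n = 3; limma adjusted p = 0.0544; q = 0.0139 in the authors' deposited table). Mrm1, a methyltransferase of the large ribosomal RNA, was at 3.62 ± 0.310 and 2.11 ± 0.498 FPKM (SD, n = 3; limma adjusted p = 0.0916; q = 0.0397 in the authors' deposited table). Rpusd4, another pseudouridine synthase, had a log2 fold change of 0.54 (limma adjusted p = 0.135), and Rbfa, which matures the small ribosomal RNA, one of -0.25 (limma adjusted p = 0.523), which was -0.05 without wild-type replicate 3 and -0.43 without wild-type replicate 1.

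Mitochondrial translation factors had a median of 0.10, with 10 of 17 higher. None was called by limma or in the authors' deposited table, beside 3.65% and 10.8% of all genes tested. At an unadjusted limma p under 0.05, 1 was higher (5.88%, beside 19.7%). Metap1d, which removes initiator methionine, was at 0.31 on the log2 scale, Mtrf1l, a release factor, at 0.28, Oxa1l, the membrane insertase, at -0.16 and Mtfmt, which formylates the initiator transfer RNA, at -0.24 (limma adjusted p from 0.214 to 0.559). Without knockout replicate 2 Mtfmt was at -0.04 and Mtrf1l at 0.44, and without wild-type replicate 1 Oxa1l was at -0.27.

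Of 14 tested genes for transcription, replication and processing of mitochondrial DNA and RNA, 9 were higher with a median of 0.02. The limma test called 1 of the 14 (7.14%, beside 3.65% of all tested genes). With an unadjusted limma p under 0.05 there were 3 higher and none lower (21.4%, beside 19.7%). Tfam, which packages mitochondrial DNA and starts its transcription, rose from 15.3, 15.8 and 14.8 FPKM to 26.2, 30.0 and 25.9 FPKM (limma log2 fold change 0.79, standard error 0.10, adjusted p = 0.0163). Without knockout replicate 1, knockout replicate 3 or wild-type replicate 2 the adjusted p of Tfam was 0.0584, 0.0622 and 0.0863. Tfb2m, its partner at the promoter, had a log2 fold change of 0.43 (limma adjusted p = 0.126; q = 0.0408 in the authors' deposited table). Supv3l1, an RNA helicase, stood at 0.45, Mterf2 at -0.19 and Hsd17b10, a subunit of the RNA-cleaving complex, at -0.18 (limma adjusted p 0.162, 0.407 and 0.559). Hsd17b10 was at -0.02 without knockout replicate 2.

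Of 10 nuclear regulators of mitochondrial genes, 5 were higher and the median was -0.00. Limma called 1 of the 10 (10%, beside 3.65% of all tested genes). With an unadjusted limma p under 0.05 there was 1 higher and none lower (10%, beside 19.7%). Esrrg, estrogen-related receptor gamma, rose from 6.70, 6.85 and 5.87 FPKM to 13.9, 12.0 and 16.7 FPKM (limma log2 fold change 1.01, standard error 0.14, adjusted p = 0.0182). Without knockout replicate 1, knockout replicate 3 or wild-type replicate 2 its adjusted p was 0.0670, 0.0709 and 0.0906. Esrra, estrogen-related receptor alpha, was at 12.1, 16.3 and 38.9 FPKM in wild type and 8.06, 14.4 and 15.2 in knockout, with a log2 fold change of -0.66 (limma adjusted p = 0.436), which was -0.19 without wild-type replicate 3. Ppargc1a, the coactivator PGC-1 alpha, had a log2 fold change of 0.33 and Myc one of -0.31 (limma adjusted p = 0.417 and 0.492). Without wild-type replicate 1 these were 0.14 and -0.50.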

How the data were processed

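RNA-seq of 6 quadriceps libraries was used. The authors' deposited values are FPKM per gene and library, for which the submitters' processing notes name TopHat2, Cuffdiff and the build mm9. Versions, annotation, strand and scaling between libraries: not given in the sources used here. Per gene, the authors' table adds their p-value and q-value for wild type against knockout. Genes with a mean of at least 1 FPKM (10501) were tested with limma 3.58.1 (R 4.3.3; lmFit, eBayes with trend) on log2(FPKM + 1), which understates changes of low genes. Tests were two-sided, with Benjamini-Hochberg adjustment over all of them. Read numbers are unknown, so no counting interval is given.

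On simulated data with 10501 genes the test recovered 20% of 1.25-fold, 80% of 1.5-fold and 100% of 2-fold and 3-fold changes, with 5 false calls. Every simulated gene was given the typical spread of its level, and only rises were placed, in genes above a set level. Real spreads differ from gene to gene at the same level, so these shares may be too high for the data used here.

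Groups came from the labels. Members, gene lists and markers were chosen with earlier results of these data known. Within each subunit the text names members called by either rule, the 5 highest and 3 lowest in level, the 4 largest differences in each direction, and Mrps30, Mrps36 and the Mrps18 genes; from each list, called genes and the 2 largest differences each way. Other names serve a count. Another pseudocount, other filters and scaling, a replicate block, leaving out libraries, the log2 ratio of group means, placement by structure and calls by q were tried as alternatives.

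Promoter windows are from RefSeq (GRCm38.p6). The annotated span of 25 members overlaps another gene, for 20 a protein-coding one, and Mrpl23, Mrpl27, Mrpl48 and Mrps36 have annotated pseudogene copies (6 in all), so reads may be shared. The peak lists and the other 8 samples were not used here.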

Additional observations from a re-analysis of the deposited data

How the results depend on the processing

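Against 2 members called by limma, 1 was called after median-of-ratios scaling (Mrps18b), 0 without a filter, 0 with the replicate number as a block, and 0 to 1 with a library left out; 3 passed the q-value of the authors' deposited table. Over all genes 383 were called, 36 with the block, 247 without a filter and 19 to 208 with a library left out. Same-numbered libraries deviated together with correlations of 0.0370, 0.0524 and 0.0467, so the numbers were not taken to pair them, although each library correlated best with its own number. Besides the 2 members, Chchd1, Trub2, Tfam and Esrrg passed the limma test; with the block none of the 6 did, without a filter Mrps18b, Mrpl30 and Chchd1 did not (adjusted p 0.0528, 0.0607 and 0.0503). Malsu1 passed over the authors' tested genes (adjusted p = 0.0489). The large subunit median of 0.115 was 0.0999 after scaling, 0.132 from ratios of means and 0.0514 to 0.115 with a library left out. With a library left out, the small subunit median of 0.0843 ran from 0.0496 to 0.127 and the difference of medians, 0.0308 with all libraries, from -0.0688 to 0.0242; under the other settings that difference was 0.0275 to 0.0538. With a library left out, log2 fold changes near 0 turned sign: Mrpl23 (-0.0981 to 0.0308), Mrpl18 (-0.119 to 0.0128), Mrpl19 (-0.0754 to 0.114), Mrpl41 (-0.0177 to 0.247), Mrps6 (-0.315 to 0.136), Mrps11 (-0.239 to 0.373), Mrps25 (-0.0226 to 0.107) and Ict1 (-0.25 to 0.13). With a pseudocount of 0.1, Mrpl19 was 0.0012 and Ict1 -0.00023, and Ict1 was -0.015 after scaling. The cause of these shifts was not tested.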
